A study of Rattus norvegicus with 30 samples.

Results

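The genes described here make, carry, sense and break down prostaglandins, together with the first enzyme of the leukotriene branch of the same lipid pathway. They were measured in cultured rat kidney cells kept at, or moved between, different osmolalities. The 10 genes were chosen by symbol: Ptgs1, Ptgs2, Ptges, Ptger1, Ptger3, Ptger4, Ptgr1, Hpgd, Slco2a1 and Alox5. Each had 1 probe set with a single gene symbol, so 10 of 10 were measured, among 14506 genes in all.

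The cells were primary inner medullary collecting duct cells of the rat, labelled as coming from the inner medulla of the kidney, and 30 arrays were divided into 10 groups of 3. Cells of 3 groups, named steady 300, steady 600 and steady 900 here, were kept throughout at the osmolality (in mosmol/kg) that the name gives. Cells kept at 300 were also stepped up to 600 mosmol/kg and collected after 3, 12, 24 or 48 h, cells kept at 600 were stepped up to 900 mosmol/kg for 12 or 24 h, and cells kept at 900 were stepped down to 300 mosmol/kg for 24 h. The labels give no strain, sex, age or genotype and no solute. The same treatment text, naming cyclosporin A at 5 µM, stands with all 30 samples, although the titles do not name this calcineurin inhibitor. Whether every culture received it cannot be read from the labels. Nothing in the labels ties the replicates to separate cultures or animals. The p-values therefore measure the spread between these arrays alone, and that spread may be technical.

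Prostaglandins are made from arachidonic acid that phospholipases A2 release from membranes. The cyclooxygenases, encoded by Ptgs1 and Ptgs2, turn it into prostaglandin H2, and the microsomal synthase encoded by Ptges turns that into prostaglandin E2. Prostaglandin E2 is a main prostanoid of the collecting duct, where it acts through receptors that include EP1, EP3 and EP4, encoded by Ptger1, Ptger3 and Ptger4. EP1 and EP3 are known for opposing the action of vasopressin there, whereas EP4 raises cyclic AMP, as vasopressin does. The transporter encoded by Slco2a1 takes prostaglandins up into cells, and the dehydrogenase encoded by Hpgd and the reductase encoded by Ptgr1 act in their breakdown. Alox5 encodes 5-lipoxygenase, which starts leukotriene synthesis and is known mainly from leukocytes.

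The 250 bases before the annotated start are printed for both cyclooxygenase genes, whose levels moved in opposite directions across the steady cultures, and for Ptges, which acts after them. They come from the RefSeq annotation of the rat assembly GRCr8, are written 5′ to 3′ on the gene's own strand, and end at the base before the start. Capitals mark matches, on either strand, to any of 6 motifs searched: the tonicity element core TGGAAA, the NF-kB motif (GGGA and CC with any 4 bases between), the E-box CACGTG, the C/EBP half-site GCAAT, the GC box GGGCGG and the TATA box TATAAA.
Ptgs2, chr13:64713813-64714062, plus strand: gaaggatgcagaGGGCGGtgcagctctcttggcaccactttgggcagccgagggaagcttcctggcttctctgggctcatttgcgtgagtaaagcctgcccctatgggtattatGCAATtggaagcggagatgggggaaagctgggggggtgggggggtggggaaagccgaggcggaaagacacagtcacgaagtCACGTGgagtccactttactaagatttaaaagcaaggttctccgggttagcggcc
Ptgs1, chr3:39981169-39981418, plus strand: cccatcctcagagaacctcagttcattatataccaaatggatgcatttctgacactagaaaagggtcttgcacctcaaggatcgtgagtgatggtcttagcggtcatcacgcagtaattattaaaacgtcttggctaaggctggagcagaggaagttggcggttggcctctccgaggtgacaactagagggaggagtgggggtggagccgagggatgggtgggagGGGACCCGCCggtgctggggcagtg
Ptges, chr3:34586988-34587237, minus strand: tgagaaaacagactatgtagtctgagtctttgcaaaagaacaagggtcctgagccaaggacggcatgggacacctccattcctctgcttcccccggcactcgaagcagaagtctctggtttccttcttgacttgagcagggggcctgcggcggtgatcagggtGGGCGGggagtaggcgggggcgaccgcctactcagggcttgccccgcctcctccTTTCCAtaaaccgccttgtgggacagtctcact

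In the Ptgs2 window the E-box lay at bases −55 to −50, the C/EBP half-site at −136 to −132 and a GC box at −238 to −233, counting −1 as the base before the start. The Ptgs1 window held an NF-kB match at −25 to −16 and none of the other motifs. The Ptges window held the tonicity element core at −33 to −28, on the opposite strand, and a GC box at −87 to −82. Among 33469 upstream windows of the same length, 5.59% held the E-box, 23.2% the C/EBP half-site, 30.5% the GC box, 16.4% the NF-kB motif, 19.7% the tonicity element core and 12.9% the TATA box. Of the 9 genes whose window was listed, which leaves out Ptgr1, the tonicity element core was present for Ptges and Ptger1 and the NF-kB motif for Ptgs1, Ptger1 and Ptger3. The TATA box was present for Slco2a1, and the E-box and C/EBP half-site for Ptgs2. The GC box was present for 7 of the 9, with Ptgs1 and Ptger4 lacking it. A match of letters describes the window and is not a binding site.

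All values are log2 signals as deposited, with array medians between 5.63 and 5.76, and the median SD of a gene was 0.133 in the fit. Levels are compared within a gene across groups, not between genes, since probes differ in brightness. The mean of 8 epithelial markers was 10.6 in steady 300, 11.2 in steady 600 and 11.2 in steady 900. In steady 900 4 of the 8 were higher than in steady 300 (20.2% of all genes were), Cldn8 and Cdh16 most (2.52 and 1.93), and 2 were lower (22.3%). The vasopressin-regulated water channel gene Aqp2, which defines principal cells, ran from 5.61 in steady 300 to 12.0 in steady 900. The mean of 12 principal cell markers was 5.78, 8.23 and 9.21 in the 3 steady groups, 6.13 at 48 h after the step to 600 and 7.71 in the cells stepped down to 300. The mean of 17 macrophage and leukocyte markers was 8.95 in steady 300, 7.03 in steady 600 and 6.32 in steady 900, and it was lowest, at 5.72, in the cells stepped down to 300. The mean of 13 fibroblast and interstitial cell markers was 9.12, 8.54 and 6.94 in the 3 steady groups and 6.999 after the step down. These array signals have no true zero, so no marker can be said to be absent. In such bulk samples fewer cells of a type and less RNA per cell cannot be told apart, and the part of these markers in the results on prostaglandin genes was not tested.

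Over the 10 groups 9 of the 10 genes differed by limma's moderated F test (73.7% of all genes did), the exception being Hpgd (adjusted p = 0.188). The difference between the highest and the lowest group mean was 5.95 on the log2 scale for Ptgr1 (61.7-fold), 4.82 for Ptgs2 (28.3-fold) and 3.28 for Ptgs1 (9.72-fold). It was 2.47 for Alox5, 2.29 for Slco2a1, 1.94 for Ptges and 1.08 for Ptger1. For Ptger3, Ptger4 and Hpgd it was 0.86, 0.56 and 0.27. A span of at least 1 was reached by 7 of the 10 genes, against 27.3% of all genes.

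**Figure D1:**
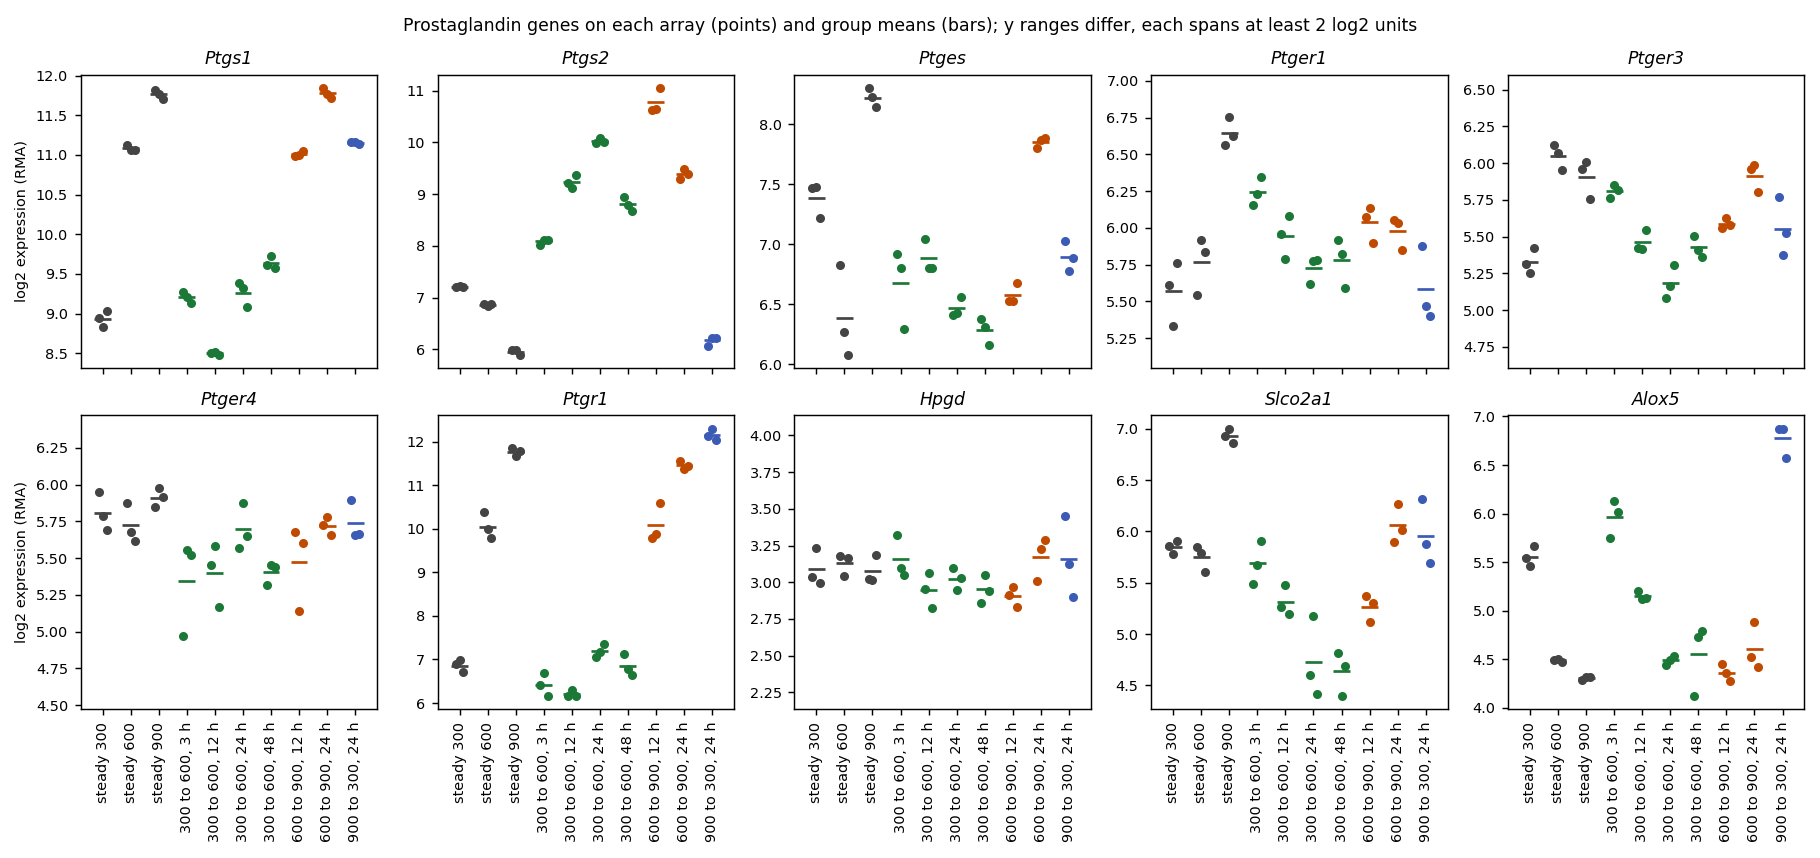
Log2 signal of each of the 10 genes (y axis, range differing by gene but covering at least 2 log2 units) on each array (points) with group means (bars), by group (x axis; grey steady, green 300 to 600, orange 600 to 900, blue 900 to 300 mosmol/kg). Ptgs1 and Ptgr1 stand high in the cells that had been kept at 600 or 900 mosmol/kg, Ptgs2 is higher in all 6 groups after an upward step than in the 3 steady groups, and Hpgd stays near 3 in every group.

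Ptgs2, the inducible cyclooxygenase, was low in cells that stayed at 1 osmolality and high after every upward step. The steady cultures read 7.20, 7.22 and 7.21 at 300 mosmol/kg, 6.87, 6.83 and 6.88 at 600, and 5.99, 5.98 and 5.89 at 900. The 3 groups did not overlap, and the level was lower at each higher osmolality. Steady 600 was 1.27-fold below steady 300 (log2 change −0.35 ± 0.09 SE, limma adjusted p = 0.00472), and steady 900 was 2.39-fold below it (−1.26 ± 0.09, adjusted p = 1.71e-12).

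After the step from 300 to 600 mosmol/kg the Ptgs2 arrays read 8.02, 8.12 and 8.12 at 3 h, 9.21, 9.13 and 9.38 at 12 h, 9.99, 10.09 and 10.004 at 24 h, and 8.94, 8.78 and 8.67 at 48 h. No 2 of these times overlapped: the level was higher at each time up to 24 h and lower again at 48 h. Against steady 300 it was 1.84-fold higher at 3 h, 4.08-fold at 12 h, 7.05-fold at 24 h (log2 change 2.82 ± 0.09, adjusted p = 3.29e-19) and 3.01-fold at 48 h. The change from 24 to 48 h was −1.23 ± 0.09 (adjusted p = 4.13e-10). At 48 h the level was still 3.83-fold above steady 600, the culture kept at the same final osmolality (1.94 ± 0.09, adjusted p = 8.74e-16).

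After the step from 600 to 900 mosmol/kg the Ptgs2 arrays read 10.63, 10.64 and 11.05 at 12 h, the highest of the 10 groups, and 9.30, 9.48 and 9.39 at 24 h. Ptgs2 was thus 15.1-fold above steady 600 at 12 h (3.91 ± 0.09, adjusted p = 9.35e-23) and 5.76-fold above it at 24 h (2.53 ± 0.09, adjusted p = 8.16e-18). At 24 h it was 10.8-fold above steady 900 (3.44 ± 0.09, adjusted p = 6.28e-21). The cells stepped down from 900 to 300 read 6.07, 6.22 and 6.23, between steady 900 and steady 600 and overlapping neither. Their difference from steady 900 was 0.22 ± 0.09 (adjusted p = 0.0638), and it passed the threshold without replicate 1 of the step down (0.27, adjusted p = 0.0448) and after quantile normalization (0.23, adjusted p = 0.0224), among others. They stood 2.05-fold below steady 300 (−1.04 ± 0.09, adjusted p = 1.33e-10).

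**Figure D2:**
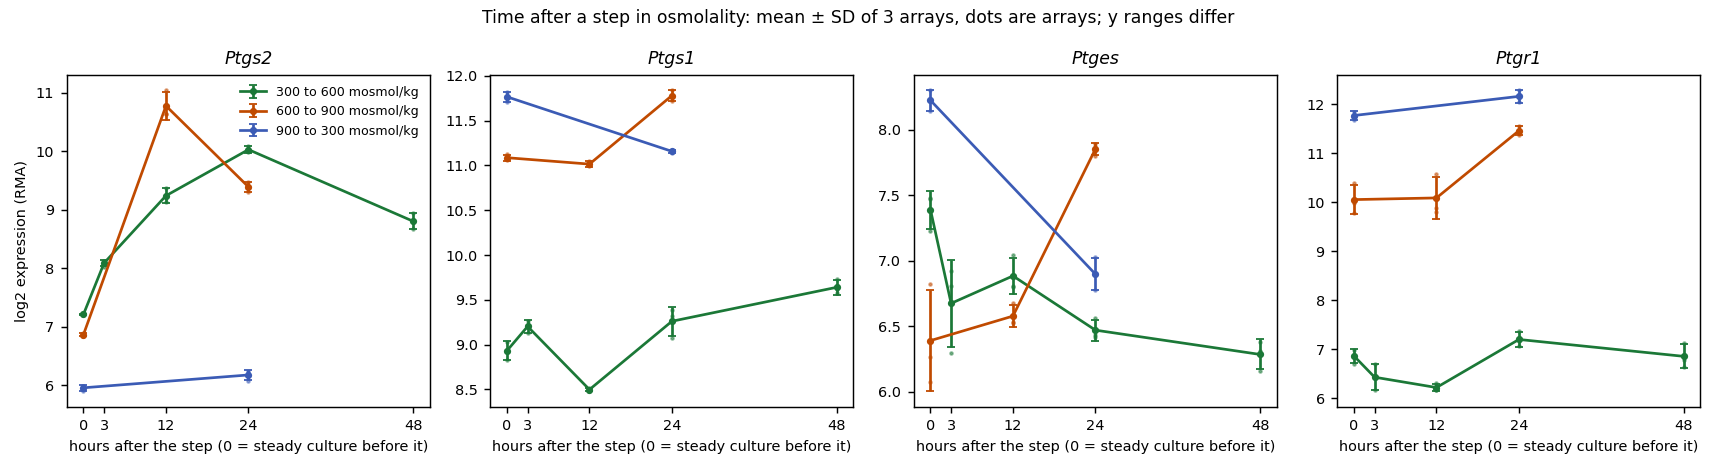
Log2 signal (y axis, range differing by panel) against hours after the step (x axis; 0 is the steady culture before it) for Ptgs2, Ptgs1, Ptges and Ptgr1; lines join means of 3 arrays, bars are SD and dots are arrays. Ptgs2 is highest at 24 h after the step to 600 (10.03) and at 12 h after the step to 900 (10.78), while Ptgs1 and Ptgr1 at 48 h after the step to 600 stand at 9.64 and 6.85, below the 11.09 and 10.05 of steady 600.

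Ptgs1, the constitutive cyclooxygenase, ran the other way across the steady cultures. Its arrays read 8.94, 8.82 and 9.03 in steady 300, 11.13, 11.07 and 11.07 in steady 600, and 11.82, 11.77 and 11.71 in steady 900. The groups did not overlap. Steady 600 was 4.45-fold above steady 300 (2.15 ± 0.08, adjusted p = 2.65e-19), and steady 900 was 7.13-fold above it (2.83 ± 0.08, adjusted p = 1.30e-22).

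Within 48 h of the step to 600 mosmol/kg the changes in Ptgs1 were smaller. The arrays read 9.27, 9.22 and 9.13 at 3 h, 8.502, 8.52 and 8.48 at 12 h, 9.39, 9.32 and 9.08 at 24 h, and 9.62, 9.73 and 9.57 at 48 h. The level lay below steady 300 at 12 h (−0.43 ± 0.08, adjusted p = 3.52e-05) and above it at 24 h (0.33 ± 0.08, adjusted p = 0.00140) and 48 h (0.71 ± 0.08, adjusted p = 1.79e-08). The 3 h value (0.27 ± 0.08, adjusted p = 0.00464) and the rise from 24 to 48 h (0.38 ± 0.08, adjusted p = 0.00207) missed the threshold when only the compared arrays were fitted (adjusted p = 0.0575 and 0.0801). At 48 h Ptgs1 was still 2.72-fold below steady 600 (−1.45 ± 0.08, adjusted p = 5.07e-15). Principal cell markers moved alongside: 9 of 12 were higher in steady 600 than in steady 300 (median log2 change 2.92) and 10 of 12 in steady 900 (3.97). Of all genes 13.7% and 20.2% were higher in these comparisons. At 48 h 9 of 12 were lower than in steady 600 (−2.34), where 12.5% of all genes were.

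After the step from 600 to 900 the Ptgs1 arrays read 10.99, 11.01 and 11.05 at 12 h, with a difference from steady 600 of −0.07 ± 0.08 (adjusted p = 0.508), and 11.85, 11.77 and 11.72 at 24 h. The 24 h arrays overlapped steady 900, from which they differed by 0.01 ± 0.08 (adjusted p = 0.937). Against steady 600 the 24 h level had risen by 0.69 ± 0.08 (adjusted p = 2.42e-08). Cells returned to 300 mosmol/kg read 11.17, 11.17 and 11.14, which was 1.53-fold below steady 900 (−0.61 ± 0.08, adjusted p = 1.42e-07) and 4.67-fold above steady 300 (2.22 ± 0.08, adjusted p = 7.27e-20). In these cells 10 of 12 principal cell markers were lower than in steady 900 (median −1.43), where 18.5% of all genes were. Against steady 300, 9 of 12 were higher (2.09), where 20.4% of all genes were. The part of principal cell markers in the levels of Ptgs1, and of Ptgr1 described further on, was not tested.

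Ptges, the inducible synthase that works with the cyclooxygenases, was lowest of the steady cultures at 600 and highest at 900. Steady 300 read 7.47, 7.48 and 7.22, steady 600 read 6.83, 6.27 and 6.08, and steady 900 read 8.30, 8.23 and 8.14. Steady 600 lay 1.998-fold below steady 300 (−0.998 ± 0.14, adjusted p = 1.51e-06) and steady 900 lay 1.78-fold above it (0.83 ± 0.14, adjusted p = 1.19e-05). Steady 600 had a wide spread, with an SD of 0.39 against 0.14 in steady 300 and 0.08 in steady 900, and its replicate 1 was the highest of its 3 arrays.

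Ptges was not among the genes that rose after the step to 600. The arrays read 6.92, 6.81 and 6.30 at 3 h, 7.05, 6.80 and 6.81 at 12 h, 6.42, 6.43 and 6.56 at 24 h, and 6.38, 6.31 and 6.16 at 48 h. All 4 times were below steady 300 without overlap, by −0.71, −0.50, −0.92 and −1.10 (SE 0.14 each), the largest adjusted p being 0.00550, at 12 h. At 48 h Ptges differed from steady 600 by −0.11 ± 0.14 (adjusted p = 0.694). The fall from 12 to 24 h (−0.41 ± 0.14, adjusted p = 0.0276) missed the threshold without the 12 h replicate 1 (−0.33, adjusted p = 0.135) or the 24 h replicates 1 or 2 (−0.39 for each, adjusted p = 0.0874 and 0.0782).

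After the step from 600 to 900 the Ptges arrays read 6.53, 6.53 and 6.68 at 12 h, overlapping steady 600 (0.19 ± 0.14, adjusted p = 0.327), and 7.80, 7.87 and 7.89 at 24 h. The 12 h value passed the threshold without replicate 1 of steady 600 (0.40, adjusted p = 0.0155). The 24 h level was 2.75-fold above steady 600 (1.46 ± 0.14, adjusted p = 2.48e-09). It lay under steady 900 by −0.37 ± 0.14 (adjusted p = 0.0672). The returned cells read 7.03, 6.78 and 6.89, which was 2.51-fold below steady 900 (−1.33 ± 0.14, adjusted p = 9.39e-09) and 1.41-fold below steady 300 (−0.49 ± 0.14, adjusted p = 0.00508).

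The receptor genes gave small changes at low signal, and many of their groups overlapped. Ptger1, encoding the EP1 receptor, read 5.61, 5.33 and 5.76 in steady 300, 5.54, 5.92 and 5.84 in steady 600 and 6.56, 6.76 and 6.62 in steady 900. Steady 900 stood above every other group without overlap, 2.11-fold above steady 300 (1.08 ± 0.12, adjusted p = 1.73e-08). At 3 h after the step to 600 Ptger1 read 6.16, 6.23 and 6.34, or 0.68 ± 0.12 above steady 300 (adjusted p = 6.79e-05). At 12 h the difference was 0.38 ± 0.12 (adjusted p = 0.0181), and it missed the threshold without replicate 2 of steady 300 (0.26, adjusted p = 0.150) or replicate 3 of the 12 h group (0.31, adjusted p = 0.0981). At 24 and 48 h the differences were 0.16 and 0.21 (adjusted p = 0.429 and 0.264). Cells 24 h into the step to 900 were below steady 900 (−0.67 ± 0.12, adjusted p = 2.00e-04), and the returned cells, at 5.88, 5.47 and 5.40, were 2.09-fold below it (−1.06 ± 0.12, adjusted p = 5.06e-08).

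Ptger3, encoding the EP3 receptor, read 5.31, 5.25 and 5.42 in steady 300, 6.12, 6.07 and 5.95 in steady 600 and 5.96, 6.01 and 5.76 in steady 900. Both higher osmolalities lay above steady 300 without overlap, by 0.72 ± 0.09 (adjusted p = 1.90e-07) and 0.58 ± 0.09 (adjusted p = 3.40e-06), and steady 900 differed from steady 600 by −0.14 ± 0.09 (adjusted p = 0.308). After the step to 600 Ptger3 read 5.76, 5.85 and 5.82 at 3 h, a rise of 0.48 ± 0.09 (adjusted p = 8.78e-05). By 48 h it read 5.50, 5.41 and 5.36, with a difference from steady 300 of 0.10 ± 0.09 (adjusted p = 0.523). That 48 h level was 1.54-fold below steady 600 (−0.62 ± 0.09, adjusted p = 3.01e-06). Ptger3 was below steady 600 at 12 h after the step to 900 (−0.46 ± 0.09, adjusted p = 1.23e-04), and at 24 h the difference was −0.13 ± 0.09 (adjusted p = 0.316).

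In the returned cells Ptger3 was above steady 300 by 0.23 ± 0.09 (adjusted p = 0.0436). That call was lost without replicate 1 of the returned group (0.12, adjusted p = 0.350) or its replicate 9 (0.24, adjusted p = 0.0644), and without replicate 1 or 2 of steady 300 (0.22 and 0.19, adjusted p = 0.101 and 0.158). The fall of Ptger3 from 12 to 24 h after the step to 600 (−0.28 ± 0.09, adjusted p = 0.0207) was lost without the 12 h replicate 3 (−0.24, adjusted p = 0.0999) or the 24 h replicates 1 or 2 (−0.23 and −0.27, adjusted p = 0.113 and 0.0633).

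Ptger4, encoding the EP4 receptor, had group means between 5.35 and 5.91, and neighbouring groups in that order overlapped throughout. The steady cultures differed by at most 0.19 on the log2 scale, with adjusted p between 0.391 and 0.735 for the 3 pairs. Ptger4 was lower than steady 300 at 3 h (−0.46 ± 0.14, adjusted p = 0.00779), 12 h (−0.41 ± 0.14, adjusted p = 0.0207) and 48 h (−0.41 ± 0.14, adjusted p = 0.0327) after the step to 600. Single arrays decided these calls. Without the 3 h replicate 1, which read 4.97 against 5.56 and 5.52, the first was −0.27 (adjusted p = 0.114). Without replicate 1 of steady 300 or replicate 3 of the 12 h group the second was −0.34 or −0.29 (adjusted p = 0.101 and 0.147). The third missed the threshold without replicate 1 or 2 of steady 300 (−0.34 and −0.41) and without each of the 48 h arrays in turn (−0.36, −0.43 and −0.42). It also missed after quantile normalization (−0.37, limma adjusted p = 0.0644) and median centring (−0.38, adjusted p = 0.0516). The first missed when only the compared arrays were fitted (−0.46, adjusted p = 0.0538).

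**Figure D3:**
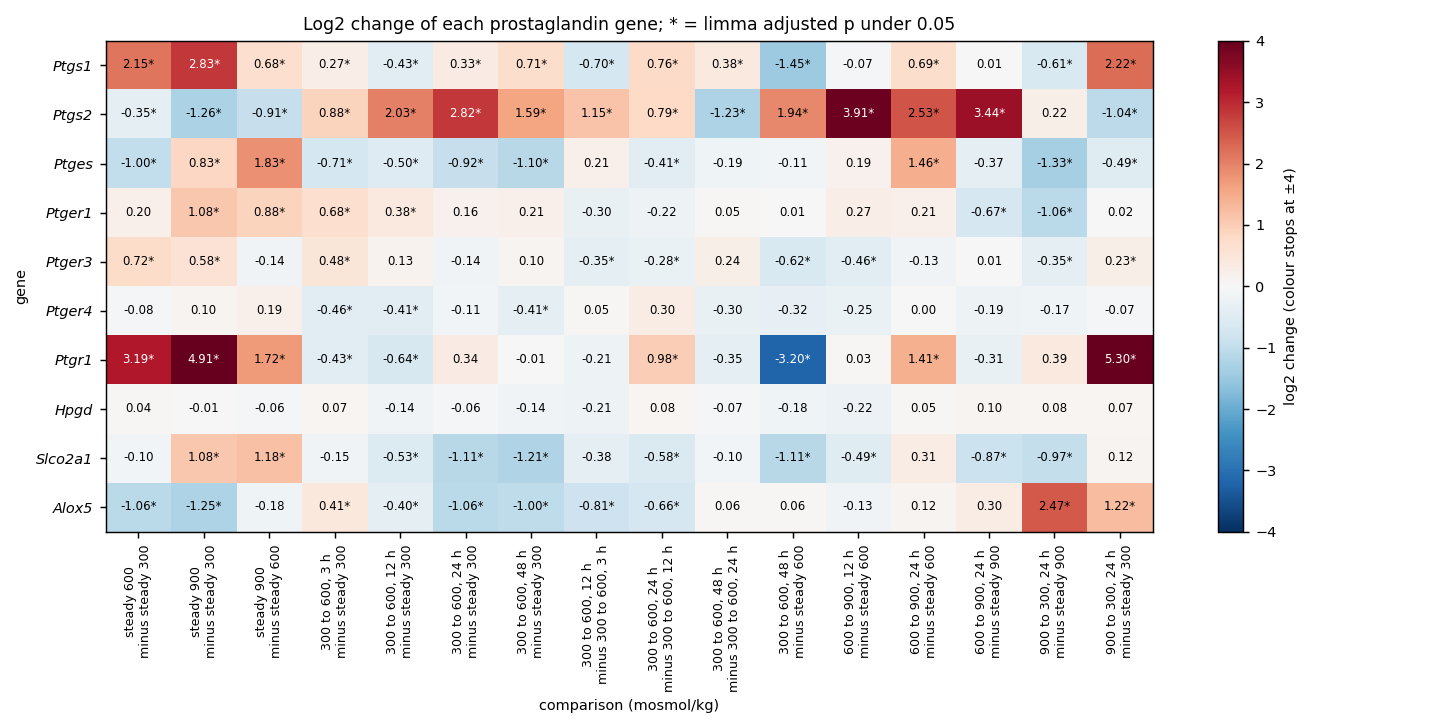
Log2 change of each of the 10 genes (rows) in each of 16 comparisons between groups (columns, mosmol/kg), red where the first group of the label is higher and blue where it is lower, with colour stopping at 4; an asterisk marks a limma adjusted p under 0.05. Ptgs2 is red for the upward steps against the culture before them and blue between steady cultures, where Ptgs1 and Ptgr1 are red.

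Ptgr1, encoding prostaglandin reductase 1, which also acts in the inactivation of leukotriene B4, had the widest range of the 10 genes. The arrays read 6.89, 6.99 and 6.70 in steady 300, 10.38, 9.99 and 9.78 in steady 600, and 11.85, 11.67 and 11.79 in steady 900. Steady 600 was 9.15-fold above steady 300 (3.19 ± 0.16, adjusted p = 1.44e-15) and steady 900 was 30.1-fold above it (4.91 ± 0.16, adjusted p = 1.95e-20). After the step to 600 Ptgr1 read 6.17, 6.31 and 6.17 at 12 h, below steady 300 without overlap (−0.64 ± 0.16, adjusted p = 0.00245), 7.06, 7.17 and 7.36 at 24 h, and 7.12, 6.79 and 6.64 at 48 h. The 24 h arrays lay above those of steady 300 without overlap, by 0.34 ± 0.16 (adjusted p = 0.153), which passed the threshold with array weights (0.32, adjusted p = 0.0386) and with the compared arrays fitted alone (0.34, adjusted p = 0.0393). At 48 h its difference from steady 300 was −0.01 ± 0.16 (adjusted p = 0.982), and it was 9.20-fold below steady 600 (−3.20 ± 0.16, adjusted p = 3.25e-15).

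The 3 h value of Ptgr1 was −0.43 ± 0.16 (adjusted p = 0.0339). It missed the threshold without replicate 1 or 2 of steady 300 (−0.42 and −0.37) or replicate 1 or 3 of the 3 h group (−0.43 and −0.31), and with cyclic loess normalization it was −0.23 (adjusted p = 0.290). After the step from 600 to 900 the 12 h arrays, at 9.79, 9.88 and 10.59, overlapped steady 600 (0.03 ± 0.16, adjusted p = 0.900), and the 24 h arrays, at 11.56, 11.38 and 11.44, lay above it by 1.41 ± 0.16 (adjusted p = 8.05e-08). The returned cells held the highest level of the 10 groups, at 12.14, 12.30 and 12.04. These cells, 24 h after they were moved to 300 mosmol/kg, were 39.5-fold above steady 300 (5.30 ± 0.16, adjusted p = 9.66e-21), and their difference from steady 900 was 0.39 ± 0.16 (adjusted p = 0.0609). That difference passed the threshold under 5 alternatives, with adjusted p between 0.00586, for the compared arrays alone, and 0.0433, with the filter on dim genes.

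Hpgd, encoding the dehydrogenase that starts prostaglandin breakdown, had a mean of 3.06 over the 30 arrays, at percentile 5.03 of the gene means. Its arrays lay between 2.82 and 3.45, all 10 groups overlapped their neighbours in order, and limma called 0 of its 18 tests, also with 0 at an unadjusted p under 0.05. A signal this low leaves little range in which a decrease could be seen.

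Slco2a1, the prostaglandin uptake transporter, read 5.85, 5.78 and 5.90 in steady 300, 5.85, 5.79 and 5.61 in steady 600 and 6.93, 7.0001 and 6.86 in steady 900. Steady 900 lay 2.12-fold above steady 300 (1.08 ± 0.16, adjusted p = 1.07e-06) and above every other group without overlap. After the step to 600 the level was lower, at 5.27, 5.47 and 5.20 at 12 h, 4.60, 5.17 and 4.41 at 24 h, and 4.82, 4.40 and 4.69 at 48 h. The change against steady 300 was −0.53 ± 0.16 at 12 h (adjusted p = 0.00841), −1.11 ± 0.16 at 24 h (adjusted p = 2.25e-06) and −1.21 ± 0.16 at 48 h (adjusted p = 6.22e-07). At 48 h Slco2a1 was also 2.16-fold below steady 600 (−1.11 ± 0.16, adjusted p = 2.00e-06), although both cultures were at 600 mosmol/kg.

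At 12 h after the step from 600 to 900 Slco2a1 was lower than steady 600 (−0.49 ± 0.16, adjusted p = 0.0141), and the value missed the threshold without replicate 1 of steady 600 (−0.44, adjusted p = 0.0577) or the 12 h replicate 2 (−0.41, adjusted p = 0.0725). At 24 h it read 5.89, 6.26 and 6.02, with a difference from steady 600 of 0.31 ± 0.16 (adjusted p = 0.157), and it was 1.83-fold below steady 900 (−0.87 ± 0.16, adjusted p = 1.44e-04). The returned cells read 6.31, 5.88 and 5.69, which was 1.96-fold below steady 900 and differed from steady 300 by 0.12 ± 0.16 (adjusted p = 0.615). The fall from 12 to 24 h after the step to 600 (−0.58 ± 0.16, adjusted p = 0.00539) missed the threshold without the 24 h replicate 3 (−0.42, adjusted p = 0.0633).

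Alox5 was lower in steady cultures of higher osmolality and highest in the cells returned to 300 mosmol/kg. It read 5.54, 5.46 and 5.67 in steady 300, 4.50, 4.50 and 4.47 in steady 600 and 4.28, 4.32 and 4.32 in steady 900. Steady 600 and steady 900 lay 2.09-fold and 2.37-fold below steady 300 (−1.06 ± 0.13 and −1.25 ± 0.13, adjusted p = 1.22e-07 and 2.59e-09). The returned cells read 6.87, 6.87 and 6.58, 5.53-fold above steady 900 (2.47 ± 0.13, adjusted p = 8.97e-15) and 2.33-fold above steady 300 (1.22 ± 0.13, adjusted p = 4.57e-09). The mean level of Alox5 over the 30 arrays was at percentile 29.6 of the gene means.

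After the step to 600 Alox5 read 5.75, 6.13 and 6.02 at 3 h, 5.20, 5.12 and 5.13 at 12 h, 4.44, 4.50 and 4.54 at 24 h and 4.12, 4.73 and 4.79 at 48 h. It was above steady 300 at 3 h (0.41 ± 0.13, adjusted p = 0.0115) and below it at 12 h (−0.40 ± 0.13, adjusted p = 0.0159), 24 h (−1.06 ± 0.13, adjusted p = 1.99e-07) and 48 h (−1.003 ± 0.13, adjusted p = 5.97e-07). At 48 h its difference from steady 600 was 0.06 ± 0.13 (adjusted p = 0.826). The 3 h value missed the threshold without replicate 2 of steady 300 (0.36, adjusted p = 0.0533), without the 3 h replicate 2 (0.33, adjusted p = 0.0689) and when arrays were normalized by cyclic loess (0.29, adjusted p = 0.103). The 12 h value missed it without replicate 3 of steady 300 (−0.35, adjusted p = 0.0752). At 12 and 24 h after the step from 600 to 900 the differences from steady 600 were −0.13 and 0.12 (adjusted p = 0.492 and 0.578).

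Leukocyte markers fell with Alox5 in some comparisons and not in others. Of the 17 markers, 16 were lower in steady 600 than in steady 300 (13.4% of all genes were) and 17 in steady 900 (22.3%). After the step to 600, 14 were lower at 24 h (13.0%) and 15 at 48 h (12.0%). At 12 h 4 were higher (11.9%) and 1 was lower (22.6%), and at 3 h 6 were higher (12.1%) and 3 lower (29.5%). Their mean ran from 8.81 to 9.19 on the 12 h arrays and from 7.15 to 7.30 on the 24 h arrays. In the returned cells, where Alox5 was highest, 17 of 17 were lower than in steady 300 (22.2% of all genes were), with a median log2 change of −3.20. The marker mean lay between 5.69 and 5.77 on these arrays. Against steady 900, 8 of the 17 were lower (18.5% of all genes) and 2 higher (19.3%), with a median log2 change of −0.33. Alox5ap, encoding the protein that presents arachidonic acid to 5-lipoxygenase, read 6.06, 5.90 and 6.11 in the returned cells, and its log2 change was −1.45 against steady 300 and −0.53 against steady 900, both past the threshold.

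In other comparisons the markers fell while Alox5 was not called. At 12 and 24 h after the step from 600 to 900, 15 of the 17 markers were lower than in steady 600 (median log2 change −1.08 and −1.45), beside the Alox5 values of −0.13 and 0.12. Of all genes 25.3% and 14.7% were lower at these times. Between steady 600 and steady 900, 11 of the 17 were lower (12.9% of all genes were). Alox5 changed there by −0.18 ± 0.13 (limma adjusted p = 0.371), a value that passed when the compared arrays were fitted alone (adjusted p = 0.0473). The part of leukocyte markers in the levels of Alox5 was not tested.

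**Figure D4:**
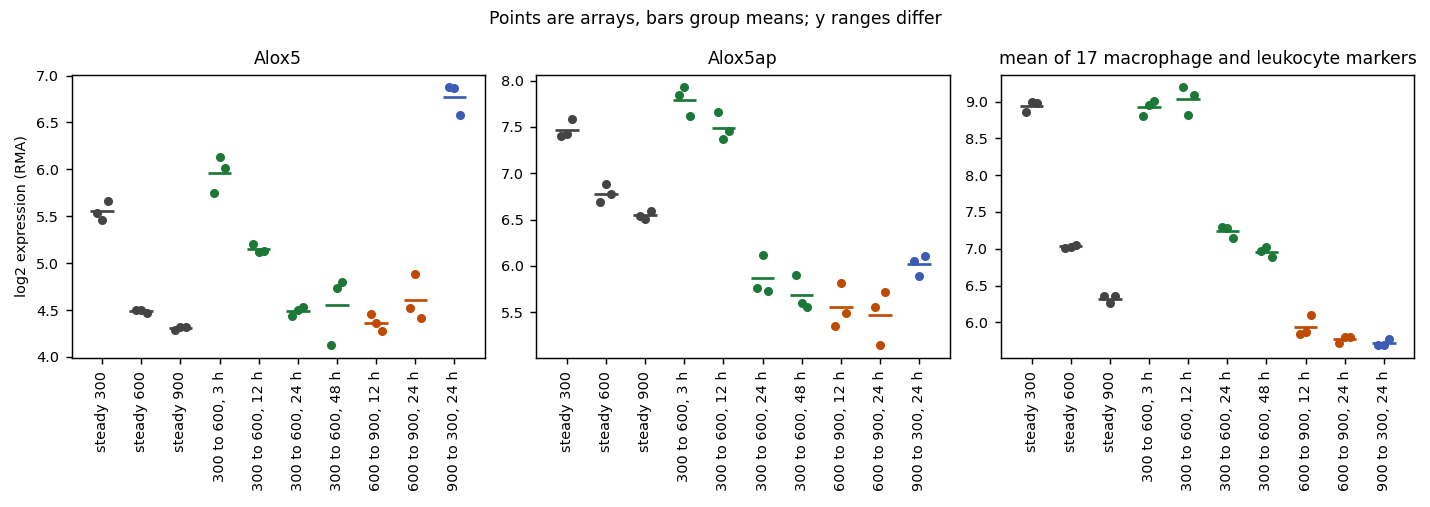
Log2 signal (y axis, range differing by panel) on each array (points) with group means (bars) for Alox5, Alox5ap and the mean of 17 macrophage and leukocyte markers, by group (x axis, mosmol/kg). In the cells returned from 900 to 300 mosmol/kg Alox5 is at its highest, 6.77, while the marker mean is at its lowest, 5.72.

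Counted by comparison, 6 of the 10 genes changed between steady 300 and steady 600, where 27.1% of all genes changed. Of these 3 were higher in steady 600 (13.7% of all genes were) and 3 lower (13.4%). Between steady 300 and steady 900 it was 8 (42.4% of all genes), with 6 higher (20.2%) and 2, Ptgs2 and Alox5, lower (22.3%). Between steady 600 and steady 900 it was 6 (24.2%), with 5 higher (11.3%) and Ptgs2 lower (12.9%). The median log2 change of the 10 genes in these comparisons was −0.02, 0.71 and 0.43, against 0.00592, −0.00323 and −0.0125 over all genes.

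At 3 h after the step to 600, 8 of the 10 genes differed from steady 300 (41.6% of all genes), with 5 higher (12.1%) and Ptges, Ptgr1 and Ptger4 lower (29.5%). At 12 h it was again 8 (34.5%), with Ptgs2 and Ptger1 higher (11.9%) and 6 lower (22.6%). At 24 h it was 5 (22.3%), with both cyclooxygenase genes higher (9.40%) and Ptges, Slco2a1 and Alox5 lower (13.0%). At 48 h it was 6 (21.6%), with both cyclooxygenase genes higher (9.57%) and 4 lower (12.0%).

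Between neighbouring times 4 genes changed from 3 to 12 h (40.9% of all genes), Ptgs2 rising (23.1%) and Ptgs1, Ptger3 and Alox5 falling (17.8%). From 12 to 24 h 7 changed (27.0%), with Ptgs1, Ptgs2 and Ptgr1 higher (17.5%) and Ptges, Ptger3, Slco2a1 and Alox5 lower (9.51%). From 24 to 48 h 2 changed (2.79%), Ptgs1 upward (1.88%) and Ptgs2 downward (0.917%). The 48 h cells differed from steady 600 in 5 of the 10 genes (22.0%), with Ptgs2 higher (9.47%) and Ptgs1, Ptgr1, Ptger3 and Slco2a1 lower (12.5%).

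After the step from 600 to 900 mosmol/kg 3 genes had changed at 12 h (37.8% of all genes), Ptgs2 being higher (12.5%) and Ptger3 and Slco2a1 lower (25.3%). At 24 h it was 4 (25.9%), with Ptgs1, Ptgs2, Ptges and Ptgr1 higher (11.2%). Against steady 900 the 24 h cells differed in 3 genes (18.3%), with Ptgs2 higher (9.47%) and Ptger1 and Slco2a1 lower (8.83%). In the fit with replicate numbers as a block this count was 5, Ptges (−0.47, adjusted p = 0.00819) and Alox5 (0.41, adjusted p = 0.0161) being added.

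After the return to 300 mosmol/kg 6 of the 10 genes differed from steady 900 (37.7% of all genes). Alox5 was higher (19.3%), and Ptgs1, Ptges, Ptger1, Ptger3 and Slco2a1 were lower (18.5%). Against steady 300 it was also 6 (42.6%), with Ptgs1, Ptgr1, Alox5 and Ptger3 higher (20.4%) and Ptgs2 and Ptges lower (22.2%).

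The 2 upward steps were compared by testing whether the change from 600 to 900 differed from the change from 300 to 600 at the same hour. At 12 h 5 of the 10 genes differed (13.4% of all genes), 4 with a higher change in the step to 900 (6.18%) and 1 with a lower one (7.25%). The change of Ptgs2 was larger in the step to 900 by 1.88 ± 0.13 on the log2 scale (adjusted p = 3.20e-11), being 2.03 in the first step and 3.91 in the second. The change of Ptger3 was lower by −0.59 ± 0.13 (adjusted p = 0.00144), being 0.13 in the first step and −0.46 in the second. The differences for Ptges (0.69 ± 0.20, adjusted p = 0.0179), Ptgr1 (0.68 ± 0.23, adjusted p = 0.0492) and Ptgs1 (0.36 ± 0.11, adjusted p = 0.0206) were lost without single arrays. That of Ptges missed the threshold without replicate 2 or 3 of steady 600 (0.63 and 0.54, adjusted p = 0.0535 and 0.0770), and that of Ptgs1 without replicate 3 of steady 300 (0.31, adjusted p = 0.0738). With only the compared arrays fitted, the Ptges difference also missed it (0.69, limma adjusted p = 0.0514).

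The Ptgr1 difference at 12 h missed the threshold without replicate 1 or 2 of steady 300 (0.66 and 0.61), replicate 2 or 3 of steady 600 (0.65 and 0.54), any of the 12 h arrays of the step to 600 (0.66, 0.73 and 0.65) or the 12 h replicate 9 of the step to 900 (0.43), and also with only the compared arrays fitted (0.68, adjusted p = 0.116) and in the blocked fit on replicate numbers (0.57, adjusted p = 0.107). Over the array omissions the adjusted p ran from 0.0536 to 0.155.

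At 24 h 5 of the 10 genes also differed between the steps (12.9% of all genes), and for all 5 the change was higher in the step to 900 (7.48%). The difference was 2.38 ± 0.20 for Ptges (adjusted p = 1.43e-09), 1.42 ± 0.22 for Slco2a1 (adjusted p = 2.91e-05) and 1.18 ± 0.18 for Alox5 (adjusted p = 2.86e-05). It was 1.07 ± 0.23 for Ptgr1 (adjusted p = 0.00161) and 0.36 ± 0.11 for Ptgs1 (adjusted p = 0.0200). Ptges and Slco2a1 changed by −0.92 and −1.11 in the step to 600 and by 1.46 and 0.31 in the step to 900, the last without passing the threshold. For Ptgs2 the difference at 24 h was −0.29 ± 0.13 (adjusted p = 0.163), and it passed with array weights (−0.30, adjusted p = 0.0234) and with the compared arrays alone (−0.29, adjusted p = 0.0219). The Ptgs1 difference missed the threshold without replicate 3 of steady 300 (0.31), the 24 h replicate 3 of the step to 600 (0.27) or the 24 h replicate 1 of the step to 900 (0.33).

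The rest of the arachidonic acid pathway was followed in lists of 62 genes, of which 55 were measured. Of these 55, 39 passed the F test (73.7% of all genes did). Of the 55, 22 spanned at least 1 on the log2 scale (27.3% of all genes did), and all 22 were among those passing the F test. Between steady 300 and steady 900, 12 were higher and 15 lower, where 20.2% and 22.3% of all genes were (median log2 change 0.05, against −0.00323 over all genes). At 12 h after the step to 600, 9 were higher and 13 lower than steady 300 (11.9% and 22.6% of all genes). At 24 h after the step to 900, 9 were higher and 8 lower than steady 600 (11.2% and 14.7%). In the returned cells 10 were higher and 16 lower than in steady 300 (20.4% and 22.2%). Each list of the pathway was counted between steady 300 and steady 900, so that the same 20.2% higher and 22.3% lower are the shares to read its counts against.

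Of 9 measured phospholipases A2 and related acyltransferases, 3 were higher and 3 lower in steady 900 than in steady 300. Pla2g4a, the cytosolic phospholipase that frees arachidonic acid for the cyclooxygenases, read 8.14, 8.19 and 8.01 in steady 300 and 9.08, 9.06 and 8.96 in steady 900, a log2 rise of 0.92. At 3 h after the step to 600 its change was −0.60. The secreted phospholipases Pla2g2a and Pla2g2d each changed by −1.15 in steady 900, and Pla2g15, of lysosomes, by 0.30. Plaat3 rose by 1.25 in steady 600, its highest group, and changed by −1.39 at 12 h after the step to 600, both past the threshold. In steady 900 its mean was not above that of steady 300.

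Of 9 other prostanoid synthases, 5 were lower in steady 900 than in steady 300 (22.3% of all genes). Tbxas1, the thromboxane synthase, read 8.46, 8.55 and 8.505 in steady 300, 7.51, 7.69 and 7.69 in steady 600 and 6.93, 6.90 and 6.87 in steady 900. It changed by −0.87 and −1.60 against steady 300, and its lowest group mean was 6.53, at 24 h after the step to 900. The prostaglandin D synthases Hpgds and Ptgds changed by −1.13 and −0.48 in steady 900. Tbxas1 and Hpgds are known from macrophages among other cells, and 17 of 17 leukocyte markers were lower in the same comparison; their part was not tested.

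Of 6 other prostanoid receptors and related proteins, Ptgir, the prostacyclin receptor, and Ptgfrn, a partner protein of the prostaglandin F receptor, changed by −1.67 and −1.50 in steady 900. These were the 2 of the 6 that passed the threshold there. Tbxa2r, the thromboxane receptor, rose by 0.84 at 3 h after the step to 600 and by 0.46 at 12 h.

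Of 10 other genes of prostaglandin transport and breakdown, 3 were higher and 2 lower in steady 900 than in steady 300. Abcc4, the efflux pump known to export prostaglandin E2, read 7.54, 7.56 and 7.58 in steady 300, 8.99, 8.82 and 8.84 in steady 600 and 9.73, 9.71 and 9.68 in steady 900. Abcc4 also rose after both upward steps, by 1.81 at 12 h after the step to 600 and by 1.32 at 12 h after the step to 900, where it had its highest group mean, 10.20. In the returned cells it read 8.21, 8.25 and 8.09, a change of −1.52 against steady 900 and of 0.62 against steady 300. The organic anion transporter genes Slco4a1 and Slco3a1 went in opposite directions in steady 900, by 3.10 and −1.78, and Slco2b1 changed by −1.32. Ptgr2, another prostaglandin reductase, changed by −0.88 at 12 h after the step to 600.

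Of 12 measured lipoxygenase and leukotriene genes, 2 were higher and 3 lower in steady 900 than in steady 300. Alox15b, a lipoxygenase of the arachidonate 15 type, had the widest range of the 55 genes, its lowest group mean being 5.22, in steady 300, and its highest 9.56, in the 24 h cells of the step to 900. Its arrays read 4.91, 5.54 and 5.21 in steady 300, 9.09, 8.41 and 8.47 in steady 600 and 9.22, 9.22 and 9.16 in steady 900. In the returned cells its change against steady 900 was −2.62. Mgst2, a microsomal glutathione transferase that can make leukotriene C4, rose by 0.80 in steady 900. Of 9 genes of the Cyp and epoxide hydrolase families, Cyp4a1, Cyp4a8 and Cyp4f1 among them, 4 were higher in steady 900. These included Ephx1, a microsomal epoxide hydrolase, by 2.22 and the epoxygenase gene Cyp2c23 by 1.23. Cyp2j4, another epoxygenase gene, changed by −0.95 at 12 h after the step to 600.

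**Figure D5:**
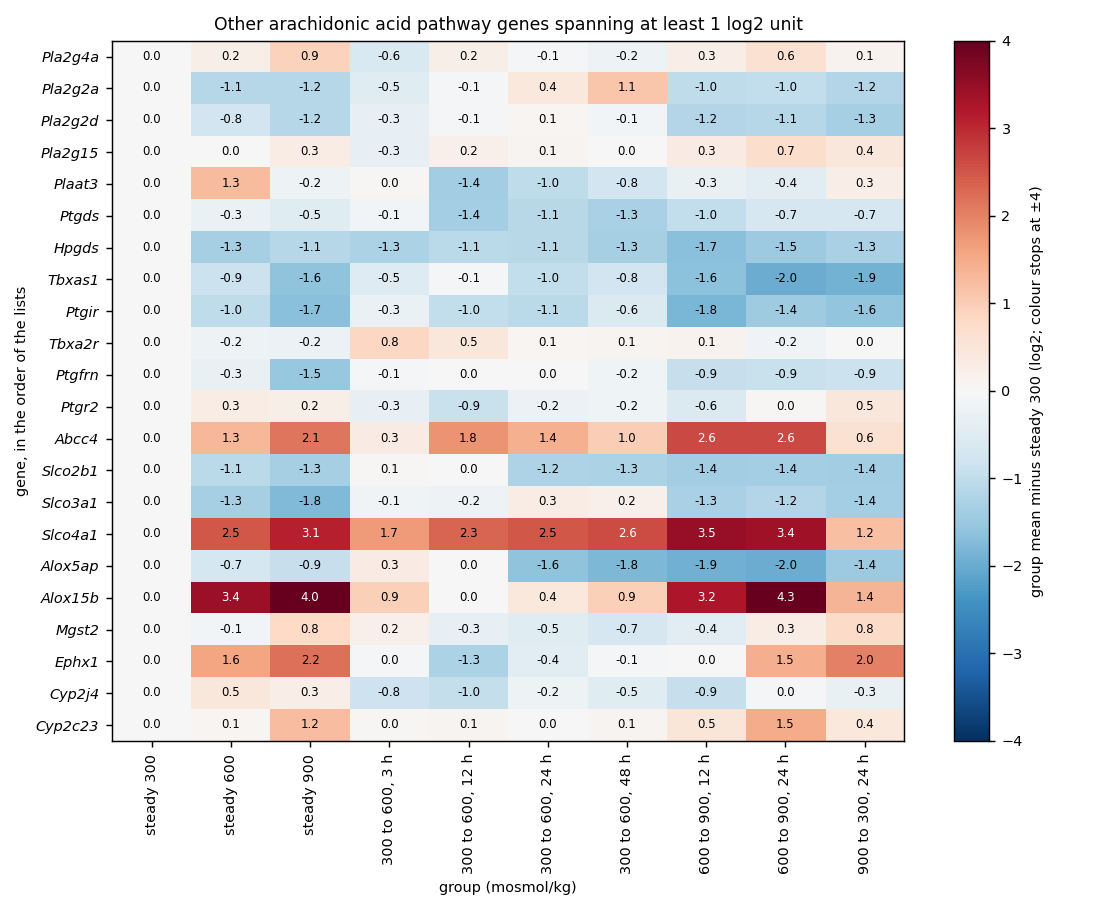
Group mean minus the steady 300 mean on the log2 scale (cells, red higher and blue lower, colour stopping at 4) for the 22 other pathway genes that span at least 1 (rows) in each of the 10 groups (columns, mosmol/kg). Alox15b and Slco4a1 are red in steady 900, by 3.98 and 3.10, and Tbxas1 and Alox5ap are blue in the groups kept at or moved to 900 mosmol/kg. The same genes are also blue in steady 600, at 24 and 48 h after the step to 600 and in the returned cells.

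Among 3952 genes that spanned at least 1, the pattern of Ptgs1 over the 10 group means was most like those of Mx1 (Pearson r = 0.994) and Gstt1 (0.993). For Ptgr1 the most alike were Rab25 (0.991) and Ikzf2 (0.981), for Slco2a1 they were Slc16a7 (0.951) and Arhgdib (0.923), and for Alox5 they were Pimreg (0.930) and Prl5a1 (0.913). Ptgs2 was most like Bmp2 (0.925) and Ankrd40 (0.884), Ptges was most like Slc16a7 (0.893) and Iah1 (0.885), and Ptger1 was most like Pga5 (0.854) and Ovol1 (0.845). These values describe 10 points that come from the same arrays for both genes of a pair, so they share each array's scaling.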

How the data were processed

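Total RNA was labelled by a whole-transcript protocol, per the labels' protocols, and hybridised to 30 Affymetrix Rat Gene 1.0 ST arrays, as the platform comment in the deposited probe annotation gives them. The authors deposited log2 values made with RMA (robust multi-array average, which corrects background, scales arrays and summarises probes), per the submitters' processing notes. No source used here gives the RMA version. Changes of dim genes can be understated on this scale. Of 29170 probe sets, 15310 had 1 gene symbol, 323 several and 13537 none listed. For each gene the brightest probe set by mean over the arrays was kept, which gave 14506 genes, 14480 of them matched by Entrez identifier to RefSeq's GRCr8 table.

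Groups came from the sample titles. limma 3.58.1 in R 4.3.3 was fitted with 1 mean per group over all 30 arrays (20 residual degrees of freedom), with eBayes, and p-values were adjusted by Benjamini-Hochberg over all 14506 genes at 0.05 within each comparison. The script was tested on simulated data. Changes are log2 differences ± SE, with 3 arrays per group, a number that limits the precision. Replicate numbers were not used to pair the samples in the main fit: residual correlations of same-numbered arrays exceeded 0.1 in 4 of 43 pairs (range −0.0988 to 0.238). Low correlations cannot show whether same-numbered arrays came from the same preparation. The genes, lists and motifs were chosen with earlier results of these data known. All 10 genes were named, other pathway genes if they spanned at least 1 and passed the F test, and the 2 most alike genes per gene, leaving out provisional symbols. Alternatives were quantile, cyclic loess and median scaling, a filter on dim genes, averaged probe sets, a trended and robust variance, a replicate block, array weights, a fit of the compared arrays alone, and leaving out each array.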

Additional observations from a re-analysis of the deposited data

Results flagged for a closer look

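The following differences between the 2 upward steps passed limma's test of the difference itself (change from 600 to 900 minus change from 300 to 600 mosmol/kg, log2 scale). At 12 h they were 1.88 for Ptgs2, 0.69 for Ptges, 0.68 for Ptgr1, 0.36 for Ptgs1 and −0.59 for Ptger3. At 24 h they were 2.38 for Ptges, 1.42 for Slco2a1, 1.18 for Alox5, 1.07 for Ptgr1 and 0.36 for Ptgs1. Beside them, 15 of 17 leukocyte markers had a lower difference at 12 h (median −1.15), as did 7.25% of all genes. At 24 h 8 of these markers had a higher and 2 a lower one (median 0.43), as did 7.48% and 5.46% of all genes. The part of leukocyte markers in the differences between the steps was not tested. No test for outlying samples was run on groups of 3 arrays, but each array was left out in turn. Without single arrays the 12 h differences of Ptges, Ptgr1 and Ptgs1 and the 24 h difference of Ptgs1 missed the threshold.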

How the results depend on the processing

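Of 180 changes tested for the 10 genes, 97 passed the threshold, and 79 of these passed it under every alternative run. No called change reversed its direction. Over all alternatives 58 values of called changes missed the threshold, 44 of them with 1 array left out, and 39 values of uncalled changes passed it. When the fit held the compared arrays alone, the count of changed genes fell from 2 to 1 between 24 and 48 h after the step to 600 and from 5 to 3 in the difference of the steps at 12 h, and it rose from 3 to 5 between the 24 h cells at 900 and steady 900. The last count was also 5 with array weights and with the replicate block. Among other moves, the fit of the compared arrays alone ended the calls of Ptgs1 and Ptger4 at 3 h after the step to 600. That fit also added calls of Ptgs2 and Ptgr1 in the returned cells against steady 900. With 1 array left out the count in the difference of the steps at 12 h lay between 3 and 5, the lowest without replicate 2 or 3 of steady 600. The replicate block also added Ptger1 from 3 to 12 h after the step to 600 (−0.30, adjusted p = 0.0410) and at 12 h after the step to 900 (0.37, adjusted p = 0.0184), ended the call of Ptgr1 in the difference at 12 h (0.57) and, beside the Ptges and Alox5 calls given above, changed no other call of the 10 genes. The cause of these changes was not tested. At 3 h 70.9% of all changed genes were lower, against 58.3% after quantile normalization and 59.1% with cyclic loess. The filter on dim genes, at a mean of 5.05, removed Alox5 and Hpgd, so these have no value under it. Brightness limits what Hpgd, Ptger3, Ptger4 and the low groups of Slco2a1 and Alox5 can show. Ptger3, Ptger4 and Slco2a1 each had a mean of 5.62 over the 30 arrays.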
